A study of Oryza sativa with 8 samples.

Results

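Rice genes of a class thought to protect cells as they dry were examined, 4 in all. These were the late embryogenesis abundant (LEA) genes LEA3-1 (Os05g0542500) and LEA3-2 (Os03g0322900) and the dehydrin genes LIP9 (Os02g0669100) and RAB25 (Os01g0702500). They were chosen by identifier, and 2 of the 4 were among the 5827 genes that the deposited tables hold. LEA3-1 was listed in leaf blades and leaf sheaths and LIP9 in leaf blades, while LEA3-2 and RAB25 were in neither table and were not analysed here. The RNA came from hydroponically grown rice (Oryza sativa), in 4 groups of 2 samples: leaf blade and leaf sheath, each as an untreated control and after 24 h in 100 mM NaCl. The sample labels give neither a variety nor an age, and whether both samples of a group are different plants is not stated, which means that p-values may reflect technical spread alone. Each table holds genes already selected as changed, with group means and no value per sample. The tissue labels were not checked against marker genes, because the tables leave out genes not selected as changed. Which LEA type each gene belongs to comes from its name, as no sequences were used here.

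LEA proteins are very hydrophilic proteins that build up in drying seeds and, under drought, salt or cold, in leaves and roots, where they are thought to protect other proteins and membranes as water is lost. The LEA3 type carries a short repeated stretch that folds into a helix on drying, whereas dehydrins, another LEA type, are marked by a lysine-rich segment. Abscisic acid, the hormone of water shortage, switches on many of these genes through bZIP transcription factors. LEA3-1 is known for raising drought resistance in rice when produced in excess, and LIP9 is known as a dehydrin gene induced by low temperature and used in rice as a target of the DREB transcription factors of cold and drought responses.

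Both members listed in leaf blades were higher with salt, LEA3-1 from almost no transcript and LIP9 from a level already well above that of the median listed gene. Of all genes listed in blades, 51.7% were higher with salt and 19.8% had a deposited log2 fold change of at least 1. Both members were also past that size, and 2 genes are too few to be read against these shares. In leaf sheaths the 1 listed member, LEA3-1, was higher as well, where 45.6% of listed genes were higher and 20.8% had a deposited log2 fold change of at least 1. How many genes the authors tested is not given in the sources used here, so these shares are of listed genes.

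**Figure D1:**
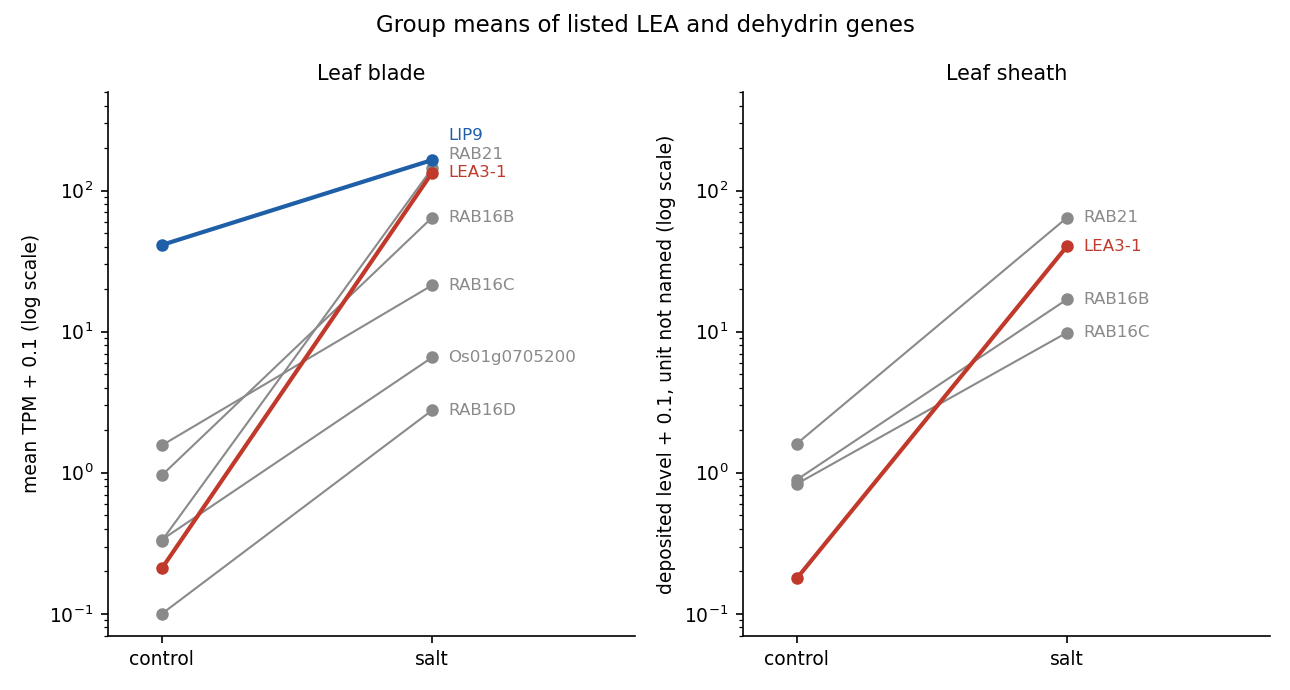
Group means in control and salt samples for the listed LEA and dehydrin genes, in leaf blades (left, mean TPM) and leaf sheaths (right, a level of unnamed unit), on log axes with 0.1 added so that a mean of 0 can be drawn. LEA3-1 (red) climbed from 0.110 to 134 TPM in blades and reached the range of LIP9 (blue), which started at 41.1 TPM.

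LEA3-1 was close to silent in control blades. In the authors' deposited table its mean was 1.5 reads, or 0.110 TPM (a level per transcript length, scaled to the library), in control blades and 1818 reads, or 134 TPM, with salt. The control group was near 0 and the salt group was not, but how each mean varied between its samples is unknown. The authors' deposited table gave a log2 fold change of 10.11 with q = 3.5e-31. That is a 1107-fold ratio resting on 3 control reads over both libraries, so its 95% counting interval (exact, Clopper-Pearson) is wide, from 379-fold to 5383-fold. In the authors' deposited table, LEA3-1 had the 2nd highest log2 fold change of the 4623 listed blade genes, whereas its q ranked only 208th. Several genes ranked near it by fold change had a control mean of 0 TPM, where a ratio has no upper bound, so that rank is approximate. The salt level of LEA3-1 ranked 548th among the listed genes. Of the 404 listed blade genes with a control mean under 1 TPM, 2 reached at least 100 TPM with salt, LEA3-1 and the dehydrin gene RAB21. Genes this low are listed mostly through a rise, and 372 of the 404 were higher with salt, so the 404 are no neutral background. In bulk tissue, more cells that make a transcript and more transcript per cell cannot be told apart.

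LIP9 was present without salt. In the authors' deposited table its mean was 840 reads, or 41.1 TPM, in control blades and 3226.5 reads, or 165 TPM, with salt. The median of the deposited means over listed blade genes was 15.8 TPM in control and 19.1 TPM in salt samples, so LIP9 lay above it in both groups. The authors' deposited table gave a log2 fold change of 1.81 with q = 6.6e-90. With 1680 control reads over both libraries, the 95% counting interval of the 3.51-fold ratio was 3.33-fold to 3.71-fold. The unscaled ratios of the deposited means lay above that interval, at 4.01 for TPM, 3.87 for FPKM and 3.84 for reads, so that interval does not cover the choice of scaling between libraries. By size of log2 fold change LIP9 ranked 452nd of the listed blade genes in the authors' deposited table, and by q it ranked 33rd. The order of the genes was thus opposite by these measures: LEA3-1 ranked higher by fold and LIP9 higher by q.

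**Figure D2:**
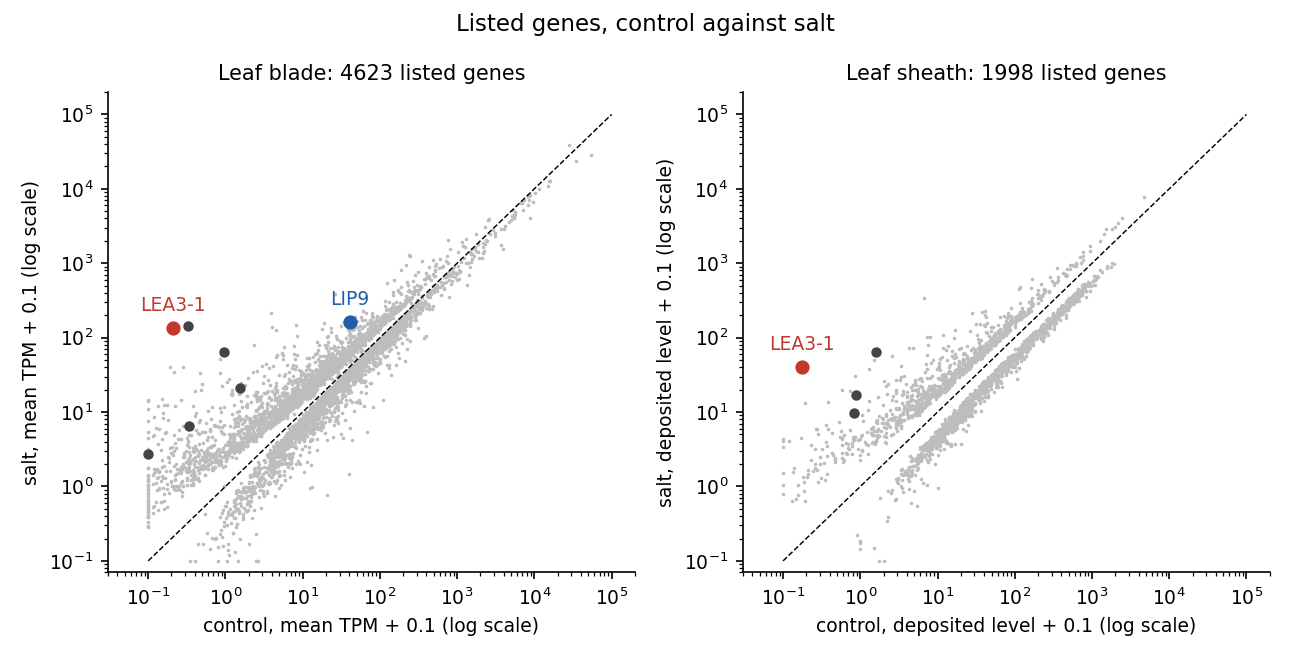
Every listed gene by its control mean (x) and salt mean (y), in leaf blades (left, mean TPM) and leaf sheaths (right, a level of unnamed unit), both on log axes with 0.1 added. The dashed line marks equal levels, grey points are listed genes, dark points the other LEA and dehydrin genes, and LEA3-1 (red) lies far above the line in both tissues while LIP9 (blue) is in the blade table only.

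The fold changes of LEA3-1 and LIP9 in blades differed far more than the amounts of transcript they gained. In the authors' deposited table, the control level of LIP9 was 374 times that of LEA3-1, and with salt it was 1.23 times as high. The mean level of LEA3-1 rose by 134 TPM and that of LIP9 by 124 TPM, the 83rd and 92nd largest gains among listed blade genes. With group means only, the spread of these gains is unknown, and whether their small difference exceeds it was not tested. At 0.0134% and 0.0165% of all TPM, both remained small parts of the blade transcripts in salt samples.

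**Figure D3:**
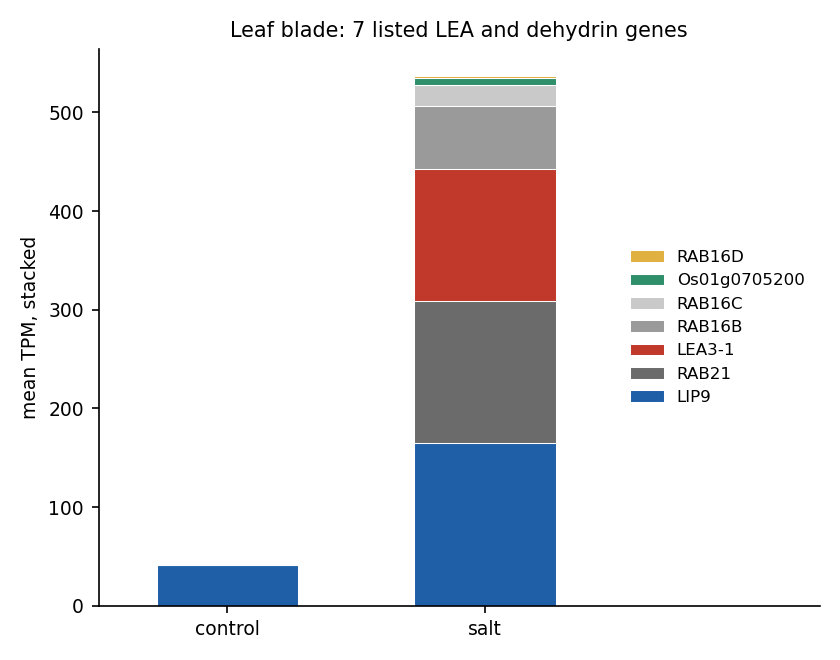
Mean TPM in control and salt leaf blades, stacked over the 7 listed LEA and dehydrin genes. The control bar, 44 TPM, is nearly all LIP9 (blue), while the salt bar, 537 TPM, is mostly LIP9, RAB21 and LEA3-1 (red).

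The other LEA and dehydrin genes were taken as a list of 6: RAB21, RAB16B, RAB16C and RAB16D, which are similar dehydrin genes on chromosome 11 whose reads the counting could split, EMP1, an LEA gene of the embryo, and Os01g0705200, whose name was not found in the reference gene table and whose place in the list therefore rests on an unchecked name. The list was chosen with earlier results of these data known. In blades 5 of these 6 were listed, all 5 of them higher, where 51.7% of all listed genes were. RAB21, RAB16B, RAB16D and Os01g0705200 had control means under 1 TPM, and RAB16C was at 1.47 TPM. Of the 404 listed blade genes with a control mean under 1 TPM, 372 were higher, so selection nearly fixed the direction. The median deposited log2 fold change of these 5 was 6.02, against 0.27 over all listed blade genes and 0.76 over those that were higher. Genes this low in control samples are listed mostly when the change is large. The larger median thus follows in part from selection and tests nothing. EMP1 was in neither table. In the authors' deposited table, RAB21 was at 0.230 TPM in control and 144 TPM in salt blades, and RAB16B at 0.860 and 64.4 TPM. The authors' deposited table gave RAB16C 1.47 TPM in control and 21.2 TPM in salt blades, and Os01g0705200 0.235 and 6.47 TPM. RAB16D was at 0 in control and 2.67 TPM in salt blades. RAB16D had no control read, and when both control libraries together are set to a floor of 3 reads the salt mean was at least 18.3-fold higher. That figure leaves out counting error in the salt reads, and the 95% interval that includes it starts at 14.4-fold. LIP9 had the smallest deposited fold change of the 7 listed LEA and dehydrin genes and the highest level in both groups.

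Among the listed LEA and dehydrin genes, the makeup by TPM differed between control and salt blades. Summed over the 7 genes, the deposited mean level went from 44 to 537 TPM, 12.2 times as high. All 7 had been selected as changed and were higher with salt, so a rise of their sum follows from that and tests nothing. LEA and dehydrin genes in neither table have no deposited level. The sum and the shares are therefore of listed genes only, and unlisted genes could alter both. LIP9 made up 93.4% of the sum in control and 30.7% in salt samples, while LEA3-1 went from 0.250% to 24.9% and RAB21 from 0.523% to 26.8%. The order by TPM in salt samples was LIP9, RAB21, LEA3-1, RAB16B, RAB16C, Os01g0705200 and RAB16D, with LEA3-1 in the 3rd place. In control samples LEA3-1, RAB21, Os01g0705200 and RAB16D had 3, 4, 7 and 0 reads over both libraries, too few to order them. LIP9, RAB21 and LEA3-1 lay within 165 to 134 TPM with salt, and without values per sample their order there cannot be set against the spread.

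In leaf sheaths, LEA3-1 also came from near nothing. The authors' deposited table gave LEA3-1 a level of 0.078 in control and 40.3 in salt sheaths, in a unit the header does not name. Among the 1998 listed sheath genes its control level was the 15th lowest, and its salt level ranked 799th from the top. The authors' deposited table gave a log2 fold change of 5.26 (adjusted p = 2.4e-21). That fold change is the ratio of the levels with 1 added to each, which shrinks the change of a gene this low. The change that was tested, the deposited statistic times its standard error, came to 8.71 on the log2 scale (standard error 0.86), and its 95% interval ran from 7.03 to 10.4 (normal, from the deposited standard error). By the listed fold change LEA3-1 ranked 2nd of the sheath genes, and by statistic times standard error it ranked 1st. The uncertainty was the 23rd largest of the sheath table, whose standard errors had a median of 0.197, and its adjusted p ranked 53rd.

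Of the other 6 LEA and dehydrin genes, 3 were listed in sheaths, all 3 of them higher, where 45.6% of all listed genes were. The median deposited log2 fold change of these 3 was 3.32, against -0.65 over all listed sheath genes and 0.95 over those that were higher. In control sheaths RAB21 was at 1.51, RAB16B at 0.792 and RAB16C at 0.733, against a median of 24.7 over listed genes. Genes this low are listed mostly when they rise strongly, so direction and size follow in part from selection. These 3 are similar dehydrin genes on chromosome 11 whose reads the counting could split. The list was also chosen with earlier results of these data known, so the median is a description. From the statistic and standard error of the authors' deposited table, the tested log2 change was 5.45 for RAB21, with a 95% interval from 4.74 to 6.16. It was 4.43 for RAB16B, from 3.59 to 5.27, and 3.74 for RAB16C, from 2.71 to 4.78. The interval of LEA3-1 lay above all 3 of these, although the 4 genes share their libraries and the differences themselves were not tested. By deposited log2 fold change, LEA3-1 and RAB21 were the highest of the listed LEA and dehydrin genes in both tissues. In blades, however, RAB16D had no control read, so its ratio has no upper bound and its place below them is uncertain.

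**Figure D4:**
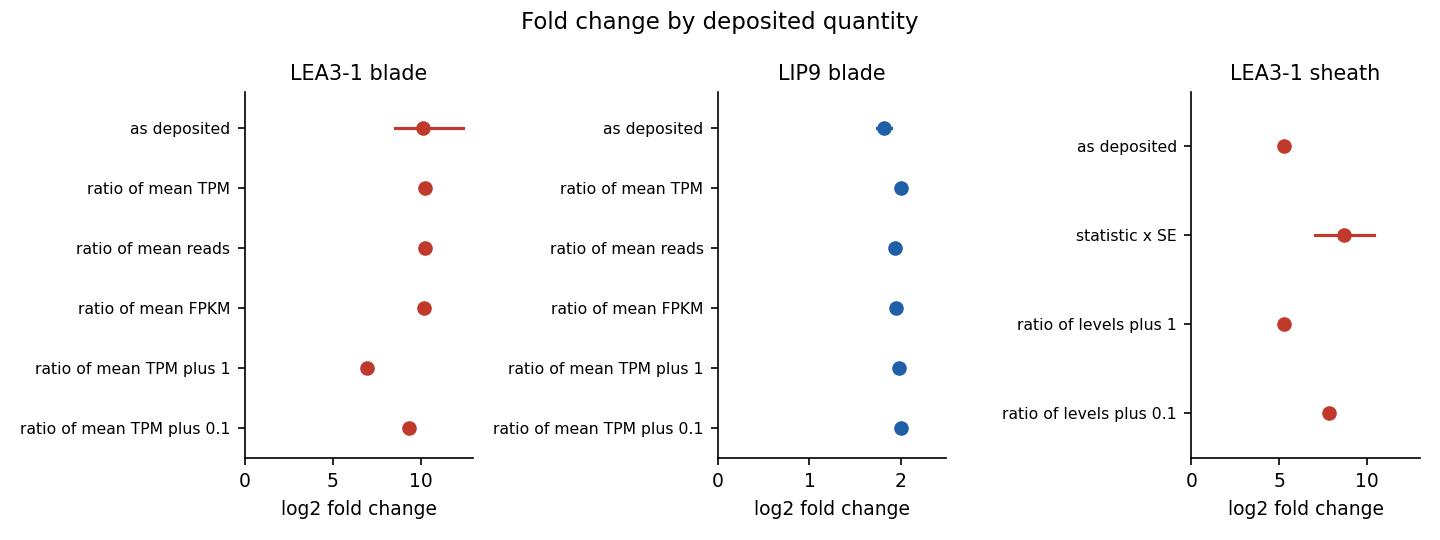
The log2 fold change of LEA3-1 in blades, LIP9 in blades and LEA3-1 in sheaths, by each deposited quantity that can give it (points). Lines are 95% intervals, from counting error for the deposited blade values and from the deposited standard error for statistic times standard error (SE); the LEA3-1 value depended on what was added to low levels, and LIP9 stayed between 1.81 and 2.0.

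Set side by side on the same form, the log2 ratio with 1 added to each level, LEA3-1 was at 6.93 in blades and 5.26 in sheaths. Its control levels, 0.110 TPM in blades and 0.078 in sheaths, were far below the added 1, so both values mostly follow the salt level. Without the added 1 the log2 ratios were 10.25 in blades and 9.01 in sheaths. The blade value is computed from deposited TPM and the sheath value from levels of unnamed unit, so no difference between the tissues was tested. LIP9 was not listed in sheaths and was not analysed there. The highest adjusted p of the sheath table was 0.004 and the highest q in blades was 0.0499, so the sheath list stops at a smaller value. Of the 452 blade genes with a deposited log2 fold change at least as high as that of LIP9, 165 (36.5%) were also in the sheath table, 157 of them higher there. The tables share 794 genes, 17.2% of the blade list and 39.7% of the sheath list.

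Upstream genes were followed with a list of 9 genes in all, made up of abscisic acid-activated bZIP factors and SnRK2 kinases that act on them. In blades 3 of the 9 were listed, all 3 of them higher, with deposited log2 fold changes from 0.90 to 1.62. As 51.7% of all listed blade genes were higher, 3 genes say little about the list, and only BZIP23 of them has a checked name. BZIP23, a bZIP factor that acts on abscisic acid-responsive genes in rice, was at 8.07 TPM in control and 24.9 TPM in salt blades. Its log2 fold change was 1.43 (q = 4.3e-23) in the authors' deposited table, so it rose with salt. The kinases SAPK8, SAPK9 and SAPK10 and the factor TRAB1 were in neither table. In sheaths 1 of the 9 was listed, a gene without a checked name, higher with a deposited log2 fold change of 0.70. In blades each listed gene of the 9 had a smaller deposited log2 fold change than LIP9, at 1.81, and whether they differ from it was not tested.

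The listed gene most like LEA3-1 in its deposited fold changes in both tissues was RAB21, at a distance of 1.13 (Euclidean, over the log2 fold changes in blades and sheaths) among 794 genes. The deposited pair of log2 fold changes was 9.13 and 4.70 for RAB21, against 10.11 and 5.26 for LEA3-1. The sheath values of that pair have 1 added to each level, and by statistic times standard error the genes lay further apart. There LEA3-1 was at 8.71 and RAB21 at 5.45, and which gene is most like LEA3-1 on that scale was not tested. In blades the 2 ratios rest on 3 control reads for LEA3-1 and 4 for RAB21. The gene most like LIP9 among those listed in blades only was Os11g0704500, at a distance of 0.073 over the deposited log2 fold change and the log2 of salt TPM plus 1. In the authors' deposited table, Os11g0704500 went from 43.7 to 166 TPM with a log2 fold change of 1.74. These likenesses rest on a pair of values per gene and are descriptions.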

How the data were processed

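RNA sequencing of 8 samples was used, grouped by title and characteristics. An mRNA kit was used on total RNA, per the labels' protocols. The submitters' processing notes name HISAT, with no version or role, and mm10, a mouse build that cannot be that of rice identifiers. No annotation, counter or test is named in them.

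The authors deposited 1 table per tissue. Blade columns, per the file headers, are a log2 fold change, group means of TPM, FPKM and reads, and a q-value. The deposited reads are estimated counts: in 5.58% of genes a mean was no mean of 2 whole numbers, though those of LEA3-1 and LIP9 were. Sheath columns, per the file headers, are a log2 fold change, an expression signal of unnamed unit per group, a standard error, a statistic (a score that gives the listed p-value as a two-sided normal p) and an adjusted p. Columns named Case1 were taken as salt. Reads of the listed blade genes sum to 10745825 per control and 9995664 per salt library on average; sheath depth is unknown.

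No new test across genes could be made. Counts, ranks, distances and intervals were computed here. Counting intervals come from summed reads, scaled by the median offset of -0.13 between deposited log2 fold change and read ratio, and cover counting error only. On counts simulated with counting error alone, the error the intervals assume, they covered the simulated ratio in 95.1% to 98.4% of 1000 genes at each of 3 settings. That checks the computation only, as spread between samples and the offset were not simulated. The identifiers are not paired with names in the files, and the reference gene table, of assembly ASM3414082v1, held 0 of them; 14 of 19 names were found there on the chromosome that the identifier states. Only these names are printed, while all 19 list members enter the counts, medians and sums, so the class of the other 5 rests on unchecked names. The genes named are the members, list members with a checked name whether or not a table holds them, and the gene most like each member, with at most 2 identifiers without a name. Planned descriptions of proteins and promoters were not run. Members and lists were chosen with earlier results of these data known. Software was SciPy 1.17.1, numpy 2.4.6, pandas 2.3.3, matplotlib 3.10.9 and Python 3.11.15.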

Additional observations from a re-analysis of the deposited data

How the results depend on the processing

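The direction of LEA3-1 and LIP9 was the same under every quantity tried, and the members counted as higher, 2 in blades and 1 in sheaths, were as many with q at most 0.01 or 0.001 in blades, adjusted p at most 0.001 in sheaths, a log2 fold change of at least 1 or a mean level of at least 1. The blade log2 fold change of LEA3-1 was 6.93 with 1 added to each TPM, which shrinks low levels by construction, and 9.32 to 10.25 by the other quantities. That of LIP9 was 2.0 as a ratio of mean TPM, 1.94 of mean reads, 1.95 of mean FPKM, 1.98 with 1 added to each TPM and 2.0 with 0.1 added. Deposited blade fold changes lay a median of 0.19 below TPM ratios on the log2 scale, and that of LIP9 also lay 0.19 below. In sheaths LEA3-1 was at 8.71 by statistic times standard error and at 7.82 with 0.1 added to each level. No paired analysis was possible because the tables hold group means and no column per sample; for the same reason no replicate could be left out. When a log2 fold change of 1 or more was required, the listed and higher genes of the bZIP and kinase list went from 3 to 2 in blades and from 1 to 0 in sheaths. With 3 control reads, counting error alone leaves the blade log2 fold change of LEA3-1 between 8.57 and 12.4.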
